A study of Homo sapiens with 8 samples.

Results

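Peaks of the transcription factor Sp1 and of the zinc finger protein CTCF were examined at 10 telomere maintenance genes. The cells were U-2 OS, from a human osteosarcoma, and they maintain their telomeres without telomerase, by alternative lengthening of telomeres (ALT). The genes were TERT, TERC, ATRX, DAXX, TERF1, TERF2, POT1, TINF2, ACD and RTEL1, 10 of 62700 genes in the annotation. They were chosen for their role, with earlier results of these data known. A peak was counted where its summit lay in the gene or within 5 kb of it. For Sp1, cells carrying a V5 and Halo tag at the endogenous SP1 gene gave 4 ChIP-seq libraries, namely an input, a control pulled down with normal rabbit IgG, and 1 library for each of 2 rabbit antibodies that recognize Sp1. For CTCF, clone C32, which carries a FLAG and Halo tag at the CTCF gene, gave 2 replicate libraries, each with an input. All cells were fixed for 6 min in 1% formaldehyde, and the labels name no other treatment. The CTCF libraries come from a single clone. Sp1 and CTCF were assayed in different lines on different sequencing instruments, so target, line and instrument cannot be told apart.

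Telomerase extends chromosome ends with its reverse transcriptase subunit, TERT, which copies a template in its RNA subunit, TERC. Shelterin coats the telomere repeats. Its members TERF1 and TERF2 bind double-stranded repeats, POT1 binds the single-stranded overhang, ACD (also called TPP1) joins POT1 to the complex, and TINF2 bridges these parts. ATRX is a chromatin remodeler that works with the histone H3.3 chaperone DAXX, and their loss is a known feature of many ALT tumors. RTEL1 is a helicase that unwinds telomere loops and G-quadruplexes. Sp1 binds the GC box common in promoters, and CTCF binds a long recognition sequence at insulators and loop anchors.

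The deposited lists held 8706 peaks for Sp1 antibody 1, 5973 for antibody 2, 42765 and 36082 for CTCF replicates 1 and 2, and 106 for IgG. They carry no read depth, and the Sp1 and IgG libraries have no replicate. Each peak has a fold enrichment over the control and a −log10 q, both from the authors' peak caller. No p-value was computed, since neither 1 library per antibody nor 2 CTCF libraries can give one below 0.05.

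The strongest CTCF sites at the genes were the 4 shown here with their sequence, 5′ to 3′ on the plus strand of hg38. Each line is 101 bases around the replicate 1 summit, and capitals mark the best match to the 12-base CTCF core on either strand. They are shown since they are the sites where both replicates gave their highest fold at each gene. The TERF2 match had 0 mismatches, the TERC and POT1 matches had 1, and the TINF2 match had 2. The share of the lists with a match at 2 mismatches was not counted, so the TINF2 match has no background beside it.
TERC, chr3:169763045-169763145: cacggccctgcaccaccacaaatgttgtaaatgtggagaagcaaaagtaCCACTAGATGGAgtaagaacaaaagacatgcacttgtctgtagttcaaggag
TERF2, chr16:69396141-69396241: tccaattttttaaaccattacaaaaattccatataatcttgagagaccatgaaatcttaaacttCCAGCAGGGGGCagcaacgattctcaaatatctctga
POT1, chr7:124856440-124856540: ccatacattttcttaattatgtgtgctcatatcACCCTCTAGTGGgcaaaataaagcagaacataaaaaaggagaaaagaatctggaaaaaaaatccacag
TINF2, chr14:24243017-24243117: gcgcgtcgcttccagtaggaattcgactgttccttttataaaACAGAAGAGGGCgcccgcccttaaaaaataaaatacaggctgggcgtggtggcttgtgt

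For Sp1, some stretches that held a match are printed as examples, again on the plus strand of hg38. Windows without a match are left out, such as those of antibody 1 at ATRX and of antibody 2 at TINF2 and ACD. Capitals mark the GC box (GGGCGG, or CCGCCC when it lies on the other strand) and the letters CCGGAA, the core that ETS family factors recognize. Where a window touched an untranslated region only 30 bases around the match are given. The DAXX and RTEL1 stretches, both cut around CCGGAA, share a run of 13 bases, acggaCCGGAAgt, and no other pair was compared. The core lay 2 bp from the DAXX antibody 2 summit, but 31 and 36 bp from the RTEL1 summits of antibodies 1 and 2. At these start sites antibody 2 gave a higher fold than antibody 1, and a link to the letters was not tested.
DAXX start site, antibody 2, chr6:33322951-33322980: ccccactacggaCCGGAAgtcacagagttt
RTEL1 start site, both antibodies, chr20:63658285-63658314: caaagcaacggaCCGGAAgtgggGGGCGGa
ACD start site, antibody 1, chr16:67660323-67660352: gaggaggaggccCCGCCCacgtacaccccg
POT1 start site, antibody 1, chr7:124930014-124930043: aaggtacaggccCCGCCCagtccggtcaca
DAXX 3′ side, antibody 1, chr6:33317431-33317531: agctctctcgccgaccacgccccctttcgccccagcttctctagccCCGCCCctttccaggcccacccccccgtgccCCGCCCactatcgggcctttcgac
TERF2 canonical start site, antibody 2, chr16:69386096-69386196: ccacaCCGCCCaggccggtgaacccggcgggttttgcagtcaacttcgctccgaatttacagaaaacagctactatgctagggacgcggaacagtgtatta

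Sp1 peaks lay at 9 of the 10 genes in at least 1 list, beside 24.2% of all annotated genes, and TERC was the exception. Antibody 1 gave 9 peaks at 7 genes, where 21.8% of all annotated genes and 44.3% of protein-coding genes met the same rule. Antibody 2 gave 8 peaks at 7 genes, beside 15.3% of all and 31.0% of protein-coding genes. Within 1 kb of an annotated start site of the gene the counts were 7 of 10 for antibody 1 and 6 of 10 for antibody 2. The backgrounds there were 16.1% and 10.4% of all genes, and 37.3% and 24.1% of protein-coding genes. Sp1 peaks were therefore more frequent at these genes than over all annotated genes in each list, as counts of 10 genes without a test. A peak found with both antibodies lay at 5 genes (DAXX, TERF1, TINF2, ACD and RTEL1), beside 12.4% of all genes and 25.7% of protein-coding genes. ATRX and POT1 had an antibody 1 peak only, and TERT and TERF2 an antibody 2 peak only.

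For CTCF the counts at protein-coding members lay at or below the background of protein-coding genes. Replicate 1 gave 9 peaks at 7 genes, beside 41.8% of all genes, and 6 of these were among the 9 protein-coding members, beside 68.0% of protein-coding genes. Replicate 2 gave 6 peaks at 4 genes, beside 37.1% of all genes, and 3 of the 9 protein-coding members had one, beside 61.5%. Within 1 kb of any annotated start site the counts were 2 genes (ATRX and TINF2) and 1 gene (TINF2), where 16.5% and 12.9% of all genes and 32.4% and 24.8% of protein-coding genes had a peak. Both replicates shared a peak at TERC, TERF2, POT1 and TINF2, 4 of 10 genes beside 36.6% of all. Of the 9 protein-coding members 3 had a shared peak, beside 60.9% of protein-coding genes. Only TINF2 had a shared Sp1 and a shared CTCF peak, 1 of 10 genes beside 7.85%. No IgG peak lay at any of the 10 genes, and 0.0654% of all genes had one.

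**Figure D1:**
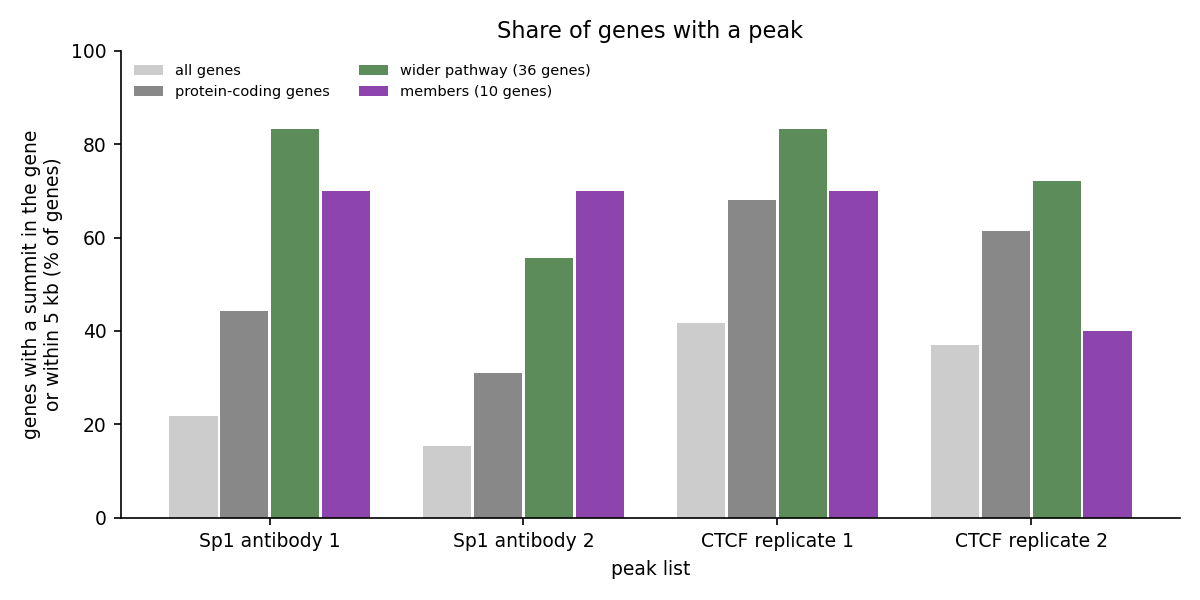
The bars give the percent of genes with a summit in the gene or within 5 kb, on an axis from 0, for each peak list and 4 gene sets. The members stand at 7, 7, 7 and 4 of 10 genes, above the bar for protein-coding genes in both Sp1 lists, close to it in CTCF replicate 1 and below it in CTCF replicate 2.

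Of the telomerase genes, TERT had a weak Sp1 peak in 1 list and TERC had none. TERT (ENSG00000164362.21, chr5:1253147-1295068, minus strand) had a single peak, from antibody 2, at chr5:1272802-1273163. Its fold was 3.16 and its −log10 q 2.22, rank 5707 of 5973, and it lay in an intron 21935 bp downstream of the start. Neither Sp1 antibody and neither CTCF replicate had a peak within 1 kb of the TERT start. The nearest peaks outside the limit lay 33.1 kb from the gene for both antibodies (folds 4.17 and 6.35) and 29.9 kb from it for both CTCF replicates (10.3 and 6.83), nearest to CLPTM1L. The TERT peak's 101-bp window held a tandem repeat, in which a run of 29 bases recurred 34 bp away. Such a run of at least 20 bases lay in 3.57% of all antibody 2 windows and in 60.4% of IgG windows, and whether repeat content bears on this weak peak was not tested.

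TERC (ENSG00000270141.3, chr3:169764520-169765060, minus strand) is a non-coding gene of 541 bp. It had no Sp1 peak, and the nearest lay 202 kb away in both lists. A CTCF peak at chr3:169762875-169763413 lay between genes, 1425 bp beyond the 3′ end of TERC, with the next start site of a protein-coding gene, ACTRT3, 6466 bp away. Its fold was 41.7 in replicate 1 (−log10 q 192) and 19.1 in replicate 2 (77.2), and the summits were 1 bp apart. These were the highest CTCF folds at any of the 10 genes in each replicate, yet 60.1% and 48.5% of the peaks in the respective list were lower, so the site was of middling strength. The log2 ratio of replicate 2 to replicate 1 was −1.12, and over all 34125 shared CTCF peaks its median was −0.89, with 95% of peaks between −1.85 and 0.03.

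At ATRX, the remodeler gene of 281 kb on chrX:77504880-77786233, only weak peaks in single lists were found. An antibody 1 peak with a fold of 4.02 (−log10 q 2.55, rank 7875 of 8706) lay 193 bp downstream of the canonical start in an untranslated exon. Replicate 1 of CTCF had an intronic peak at chrX:77597188-77597393 with a fold of 8.39 (−log10 q 18.3), 429 bp from the start of a shorter transcript, and replicate 2 had none at the gene. Antibody 2 had no peak nearer than 109 kb.

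DAXX (ENSG00000204209.13, chr6:33318558-33323016, minus strand), which encodes the partner of ATRX, had Sp1 peaks on both sides and no CTCF peak. At its own start, antibody 1 gave a fold of 4.97 (−log10 q 5.95) with the summit 134 bp upstream, and antibody 2 gave 10.7 (25.1) with the summit 9 bp upstream, where the CCGGAA core lies. At the 3′ side, near the start of the neighboring gene ZBTB22, the order was the opposite, with 15.6 (71.1) for antibody 1 and 5.38 (11.0) for antibody 2. The log2 ratio of antibody 2 to antibody 1 was 1.10 at the DAXX start and −1.54 at the ZBTB22 side, which lies 1077 bp outside DAXX and 263 bp from the ZBTB22 start. The antibodies thus ranked these neighboring sites in opposite order. The nearest CTCF peak was 18.7 kb from DAXX, with folds of 35.6 and 22.9.

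Of the 5 shelterin genes among the members, each had an Sp1 peak within 1 kb of a start site in at least 1 list. That was so for 17.5% of all genes and 40.3% of protein-coding genes, and for 8 of the 10 members. TERF1 (chr8:73008856-73048123, plus strand) had folds of 6.28 and 4.87 with antibodies 1 and 2 (−log10 q 10.9 and 5.23), 18 and 117 bp upstream of its canonical start. The antibody 2 window held a 27-base run that recurred 27 bp away, and it was the other antibody 2 member peak beside TERT with such a run. No CTCF peak lay within 5 kb of TERF1, and the nearest was 13.8 kb away, with folds of 23.4 and 7.78.

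TERF2 (ENSG00000132604.11, chr16:69355567-69408571, minus strand) has a canonical start inside the annotated gene, since a longer transcript begins farther upstream. An antibody 2 peak with a fold of 5.26 (−log10 q 5.56) lay 139 bp upstream of that canonical start, at chr16:69385976-69386272, while the nearest antibody 1 peak was 15.9 kb from the gene. A pair of CTCF sites lay farther upstream, in the intron of the long transcript. The stronger, at chr16:69395616-69396512, had folds of 31.1 and 18.6 (−log10 q 158 and 72.5), and the summits of both replicates fell on the same base. The weaker, with folds of 12.1 and 9.34 (43.8 and 24.3), lay 68 to 84 bp from the start of CYB5B, a gene transcribed in the opposite direction.

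POT1 (ENSG00000128513.16, chr7:124822386-124929983, minus strand) had an antibody 1 peak with a fold of 6.39 (−log10 q 8.32), 175 bp upstream of the canonical start. That summit was 4 bp from the start of the divergent transcript POT1-AS1, so the peak cannot be assigned to either. Antibody 2 had no peak nearer than 1287202 bp. CTCF was found deep in the gene, in an intron at chr7:124856206-124856733, 73.3 kb downstream of the start. The folds there were 31.8 and 15.4 (−log10 q 134 and 53.4), with summits 7 bp apart and a log2 ratio of −1.05.

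TINF2 (ENSG00000092330.19, chr14:24238286-24242663, minus strand) was the only gene of the 10 with peaks in all 4 Sp1 and CTCF lists. Antibody 1 gave a fold of 5.83 (−log10 q 11.2) and antibody 2 a fold of 3.36 (3.39), 111 and 153 bp upstream of the canonical start. A broad CTCF peak of replicate 1, 1411 bp wide, covered the same region with a fold of 41.2 (−log10 q 251) and its summit 444 bp upstream. Replicate 2 split this region into peaks of 15.1 (97.7), 440 bp upstream, and 9.17 (27.4), 296 bp downstream in a coding exon. The nearest Sp1 and CTCF summits lay 287 bp apart, against 2.99 kb at ACD and more at the other genes with both. Just outside the 5 kb limit, both antibodies had a further peak at the GMPR2 start, 5.83 and 5.41 kb from TINF2, with folds of 9.34 and 5.03.

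ACD (ENSG00000102977.18, chr16:67657512-67660810, minus strand) had the strongest antibody 1 peak of the 10 genes. Its fold was 19.7 (−log10 q 70.1, rank 809 of 8706), with the summit 82 bp upstream of the canonical start. The overlapping antibody 2 peak had a fold of 6.35 (11.1), and its summit lay 438 bp away. That summit was 8 bp from another annotated start of ACD and 166 bp from the start of PARD6A, which is transcribed in the opposite direction. When a shared peak had to have summits within 100 bp, ACD was therefore not shared. CTCF replicate 1 alone had weak peaks on either side, both with a fold of 4.63 (5.87), at the starts of CARMIL2 and ENKD1.

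RTEL1 (ENSG00000258366.12, chr20:63657810-63696253, plus strand), the helicase gene, lies 747.9 kb from the end of its chromosome and had the strongest antibody 2 peak of the 10. That peak, at chr20:63657854-63659020, had a fold of 72.0 (−log10 q 293), rank 156 of 5973. Antibody 1 placed its summit 5 bp away but gave a fold of 5.63 (6.06), rank 6258 of 8706. The log2 ratio of 3.68 was reached or exceeded at 47 of 4281 shared Sp1 peaks (1.1%). A further antibody 1 peak, with a fold of 8.05 (12.3), lay at the STMN3 start, 4253 bp outside RTEL1 and so just inside the limit.

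A CTCF peak of replicate 1 in an RTEL1 intron was the weakest at any of the genes, with a fold of 2.89 (−log10 q 1.54, rank 42409 of 42765). Its window is printed to show a tandem repeat, in which the first 44 bases recur 57 bp further on. The repeat ran over chr20:63669600-63670482, 883 bp or 15.5 units, with neighboring units alike at 80% or more of their bases. A repeated run of at least 20 bases lay in 0.358% of replicate 1 windows, and the part of repeat mapping in this peak was not tested.
RTEL1 intron, CTCF replicate 1, chr20:63669936-63670036: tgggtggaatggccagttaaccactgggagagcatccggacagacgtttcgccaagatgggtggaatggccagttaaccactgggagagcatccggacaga

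**Figure D2:**
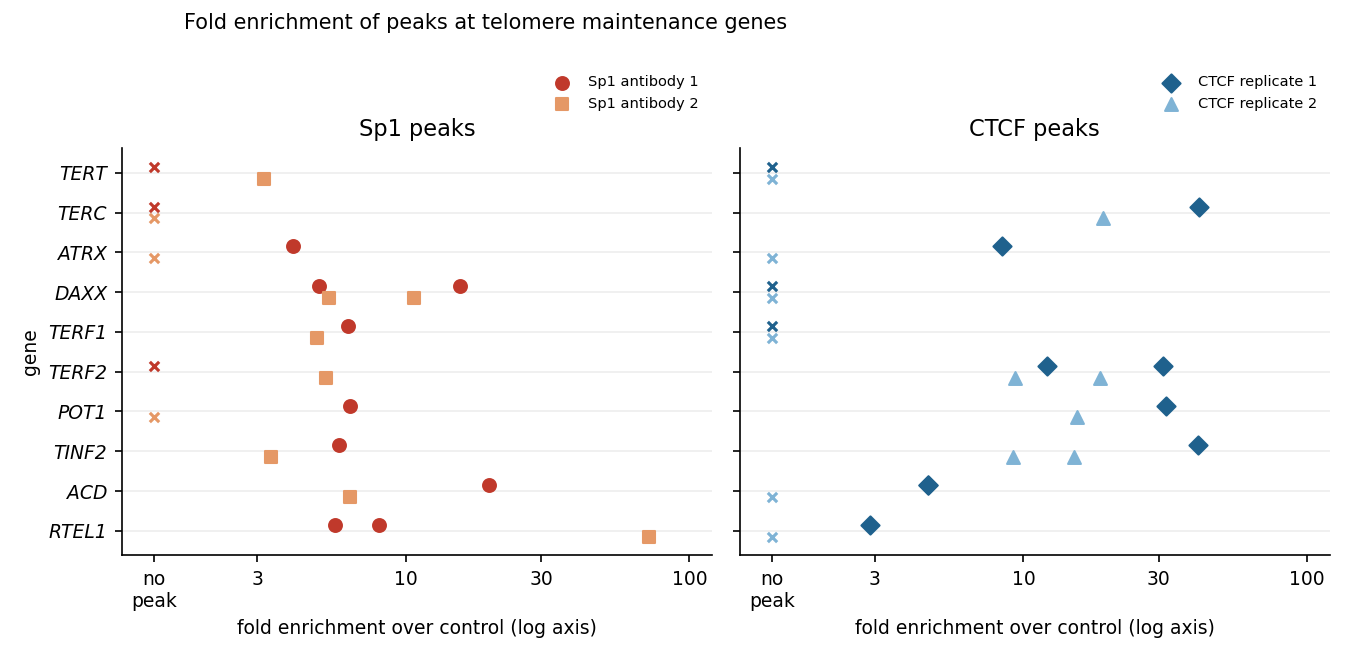
Fold enrichment of each peak (log axis) is plotted by gene, with Sp1 antibodies on the left and CTCF replicates on the right, and a cross marks a list without a peak. RTEL1 at 72.0 stands apart from the other antibody 2 peaks, and the 2 replicate 1 peaks at ACD lie on the same point at 4.63.

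Across the genes, Sp1 and CTCF differed in position relative to the start of the member itself, and the shares of the whole lists are not given here. Of the 9 antibody 1 peaks, 7 lay within 1 kb of a member's start, as did 6 of the 8 antibody 2 peaks, whereas CTCF sites at TERC, TERF2, POT1, ACD and RTEL1 lay from 1.96 to 73.3 kb from the canonical start. At ATRX the CTCF peak was 189 kb downstream of it. Only the CTCF peaks of TINF2 lay within 1 kb of the canonical start, at most 0.444 kb away. Some other replicate 1 CTCF summits were close to starts of neighboring genes, 68 bp from CYB5B, 70 bp from ENKD1 and 114 bp from CARMIL2. The summits at TERC, POT1 and RTEL1 and the stronger one at TERF2 lay more than 1 kb from any annotated start.

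**Figure D3:**
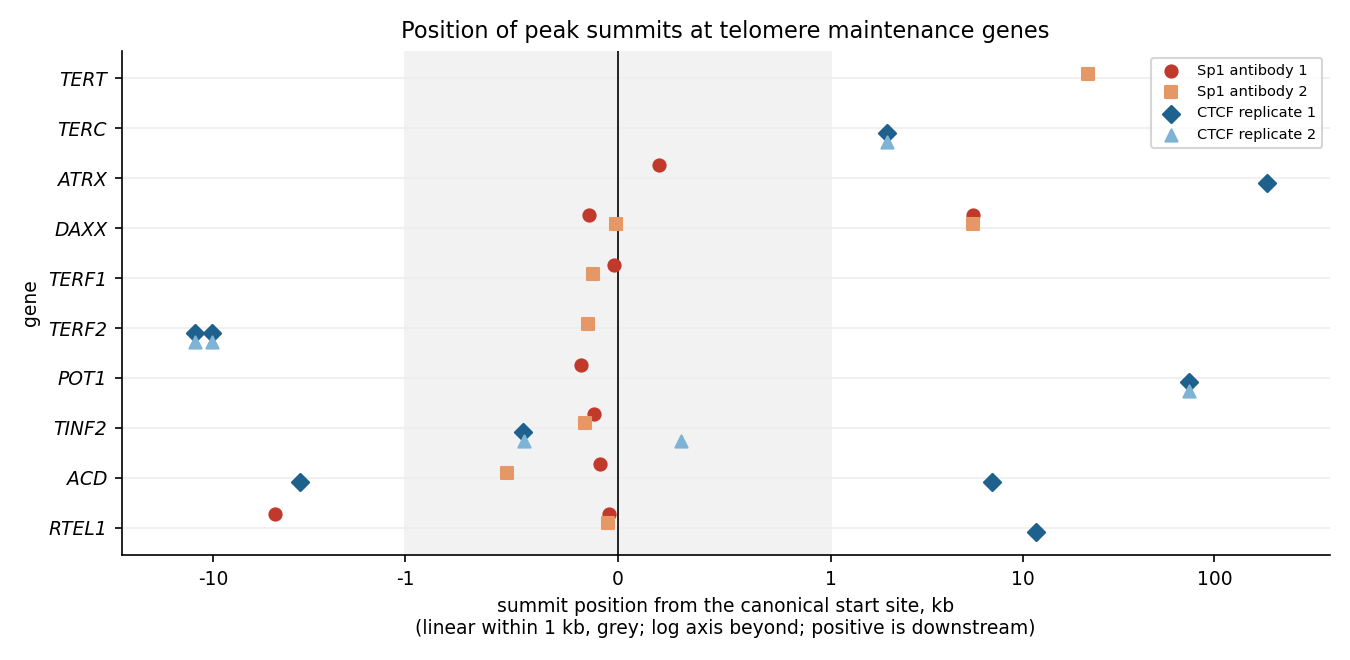
Summits are plotted by their distance from the canonical start site in kb (linear within 1 kb, log axis beyond), 1 row per gene and 1 symbol per list. Sp1 summits cluster in the grey band within 1 kb, except at TERT, the ZBTB22 side of DAXX and the STMN3 side of RTEL1, while CTCF summits lie outside it except at TINF2.

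Log2 ratios at the shared sites lay within the range of 95% of all shared peaks, except at RTEL1. At the 6 shared Sp1 sites the log2 ratio of antibody 2 to antibody 1 was −1.63 at ACD, −1.54 and 1.10 at DAXX, −0.80 at TINF2, −0.37 at TERF1 and 3.68 at RTEL1. Over all 4281 shared Sp1 peaks the median was −0.64, with 95% between −2.17 and 3.14, so RTEL1 alone lay outside that range. The quartiles were −1.10 and −0.03, and of the 6 sites only those of TINF2 and TERF1 lay between them. At the 5 shared CTCF sites the log2 ratio of replicate 2 to replicate 1 ran from −1.45 at TINF2 to −0.37 at the CYB5B side of TERF2, all within the range of the list.

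**Figure D4:**
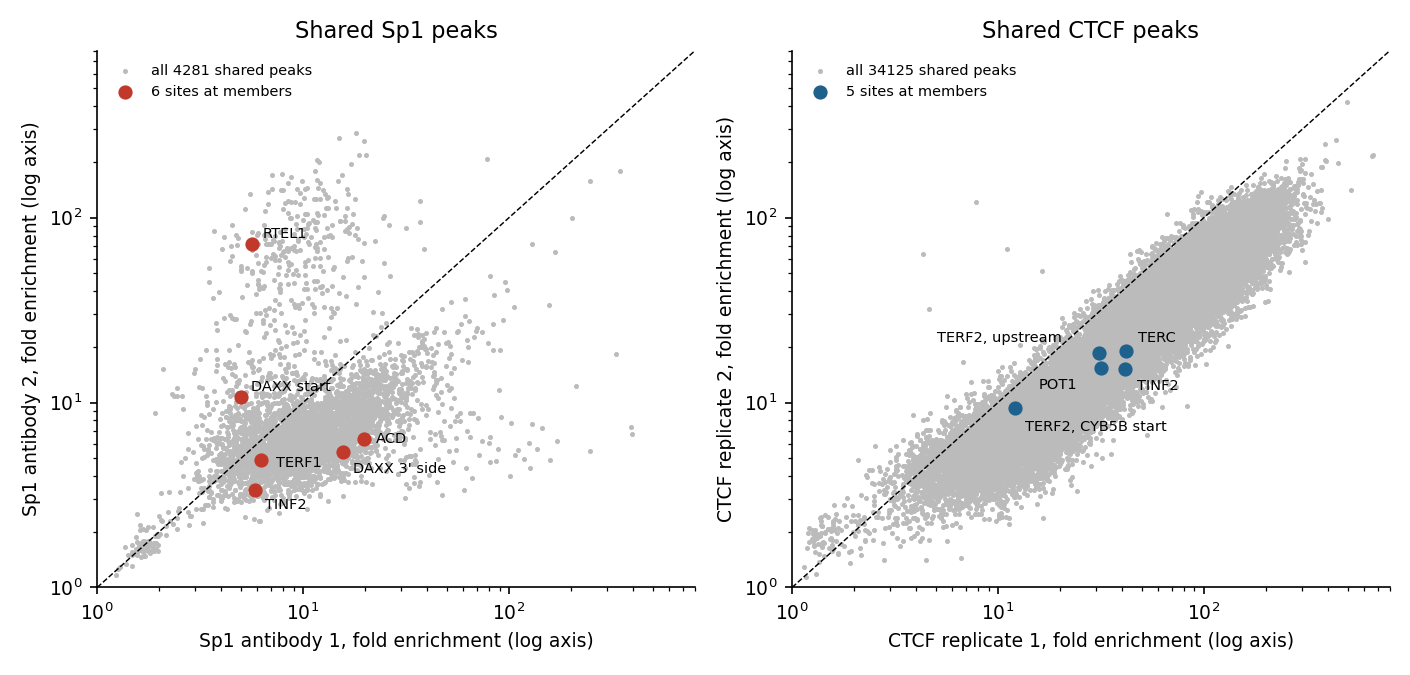
Fold enrichment of shared peaks is plotted for antibody 1 against antibody 2 and for replicate 1 against replicate 2 (log axes, grey: all shared peaks, colored: sites at the 10 genes, dashed line: equal fold). RTEL1 lies with a group of peaks that antibody 2 enriched far more than antibody 1, and the CTCF sites lie within the main cloud.

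Letters near the summits were counted in each list, and the difference between the antibodies was not tested. Within 50 bp of the summit, GGGCGG on either strand lay at 7 of 9 antibody 1 peaks of these genes, beside 52.8% of that list, and at 2 of 8 antibody 2 peaks (TERF2 and RTEL1), beside 36.7%. Within 100 bp the counts were 7 of 9 and 5 of 8. The shares of the whole lists at that width are not given here, so these counts have no background beside them. CCGGAA lay at 1 of 9 antibody 1 peaks (RTEL1), beside 11.8%, and at 3 of 8 antibody 2 peaks (DAXX, TERF1 and RTEL1), beside 17.7%. At TERF1, where the antibody 2 window held CCGGAA, the log2 ratio of antibody 2 to antibody 1 was −0.37. Its median over all shared Sp1 peaks was −0.64, and a link between these letters and the ratio was not tested. The letters TCGCGAGA lay at none of the Sp1 peaks of these genes, beside 2.70% and 0.636% of the lists. A pair of telomere repeats TTAGGG in a row lay at no peak of these genes, whereas 5 of 106 IgG peaks (4.72%) held one.

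The CTCF core itself lay without mismatch at 1 of 9 replicate 1 peaks and 1 of 6 replicate 2 peaks, both at TERF2, beside 15.8% and 17.8% of the lists. With 1 mismatch allowed it lay at 3 of 9 and 3 of 6, at TERC, TERF2 and POT1, beside 50.8% and 54.3%. GC content of the windows had a median of 67.3% and 63.4% at the antibody 1 and antibody 2 peaks of these genes and of 49.5% and 47.0% at the CTCF peaks. Over the whole lists the medians were 66.3%, 63.4%, 52.5% and 52.5%.

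The other genes of telomere maintenance were counted on a list of 36, all protein-coding. Antibody 1 had a peak at 30 of them, antibody 2 at 20, CTCF replicate 1 at 30, replicate 2 at 26 and IgG at 0. These are 83.3%, 55.6%, 83.3% and 72.2% of the list for the Sp1 and CTCF lists, above the 44.3%, 31.0%, 68.0% and 61.5% of protein-coding genes. The Sp1 peaks lay within 1 kb of a start at 28 and 18 genes (37.3% and 24.1% of protein-coding genes), and CTCF peaks at 12 and 12 (32.4% and 24.8%). Both antibodies shared a peak at 19 genes and both replicates at 25, beside 25.7% and 60.9% of protein-coding genes. Among 8 further genes of the telomerase ribonucleoprotein, antibody 1 had a peak at 7 and antibody 2 at 5, and CTCF replicates at 8 and 6. At 23 genes of recombination and ALT the counts were 18, 12, 17 and 16. Both groups are read against the same protein-coding shares. TERF2IP, the remaining shelterin gene, had an antibody 1 peak with a fold of 11.7 and CTCF peaks of up to 88.7 and 42.5. That strongest CTCF peak lay between genes, beyond the end of TERF2IP and 108138 bp from its start.

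The strongest shared Sp1 peaks of this list exceeded most at the 10 genes. They lay at NR2C2 (21.7 with antibody 1 and 9.12 with antibody 2), which encodes a nuclear receptor found at ALT telomeres, at RMI1 of the BLM dissolvasome (21.6 and 9.12), at NHP2 of the telomerase ribonucleoprotein (15.6 and 11.1) and at the nuclease gene EXO1 (12.9 and 9.12). The strongest shared CTCF peaks lay at WRAP53, which encodes a telomerase trafficking factor (161 in replicate 1 and 92.9 in replicate 2), NBN of the MRN complex (193 and 73.1), NOP10 of the telomerase ribonucleoprotein (149 and 92.8) and the recombination gene RAD52 (142 and 76.2). These CTCF folds were above the 41.7 and 19.1 at TERC. At each of the 4 Sp1 peaks the antibody 1 summit lay nearer to the start of another gene. It was 53 bp upstream of HNRNPK at RMI1 and 7 bp from FGD5-AS1 at NR2C2, so these peaks cannot be assigned to 1 gene. The CTCF summit at NOP10 likewise lay nearer to the NUTM1 start. No gene of the list had an IgG peak.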

How the data were processed

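ChIP-seq was performed on 8 libraries, and the 5 deposited peak lists were analysed. Per the submitters' processing notes the authors used cutadapt 2.6, Bowtie2 2.4.5, SAMtools 1.15.1, deepTools 3.5.4, MACS2 2.2.7.1 and bedtools 2.27.1 with hg38. The deposited fold enrichment is a linear ratio over the control, the deposited −log10 p and −log10 q come from the authors' peak caller, and the deposited score was not used. Lists were called per library. The study's methods describe a liberal p-value limit, no local background and merged controls for a reproducibility step. Whether these apply to the deposited lists is not stated, and the lists end at a −log10 q of 1.30 to 1.43. The 3 input libraries have no list among the files used here. The series description names wild type cells for CTCF where labels and methods name clone C32, and the labels were followed.

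Summits were assigned to GENCODE release 44 genes (Python 3.11.15, numpy 2.4.6, pandas 2.3.3, pysam 0.24.0), within 5 kb. Shared peaks overlap by at least 1 bp, and fold ratios pair the overlapping peaks. Distances use the Ensembl canonical start, and counts within 1 kb use any annotated start. Sequences were read from hg38, and motifs were sought in either orientation up to 50 bp from each summit. Functions were tested on simulated data. Depth per sample is unknown from these lists, so no interval was computed. The named genes were the 10 members and, of a list of 36, the 4 with the highest mean log2 fold of shared Sp1 peaks, the 4 for CTCF and any with an IgG peak. The members and lists were chosen with earlier results of these data known. Alternatives changed distance, threshold, overlap, list size, replicates, gene class, motif and window.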

Additional observations from a re-analysis of the deposited data

How the results depend on the processing

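Counts of members depended most on where a peak may lie. In the gene body alone, antibody 1 had 3 peaks at 3 members, antibody 2 had 5 peaks, CTCF replicate 1 had 5 peaks at 4 members, 2 members shared an Sp1 peak, 2 shared a CTCF peak and 0 shared both. Within 1 kb of a start site, replicate 1 had 2 peaks at 2 members, replicate 2 had 2 peaks at 1 member and 1 member shared a CTCF peak. Within 10 kb, 2 members shared both. The shares of all genes in the gene body alone and within 10 kb are not given here, so these counts cannot be set against a background. Leaving out a CTCF replicate gave 4 to 7 members with a CTCF peak and 1 to 3 with both a shared Sp1 and a CTCF peak. The higher values are those without replicate 2, whose list lacks peaks at ATRX, ACD and RTEL1. The 4 and 7 are the single-list counts, beside 37.1% and 41.8% of all genes, and no share stands beside the 1 to 3. Of 104 alternative values 78 stayed within 1.5 times the main value and 26 did not. The 78 include the IgG counts at the members, which were 0 in every setting. At equal list sizes antibody 1 and CTCF replicate 1 each had a peak at 5 members, antibody 2 at 7 and CTCF replicate 2 at 4. No share of all genes stands beside these counts. Among the 26 values, a window of 100 bp raised antibody 2 peaks with GGGCGG from 2 to 5. The longer box GGGGCGGGG lay at 2 antibody 1 peaks and 0 antibody 2 peaks, beside 18.8% and 11.3% of the lists. No paired analysis was possible because replicate numbers of CTCF are shared only with input libraries that have no list here. Without read counts, a member without a peak was not detected in that list, and unequal depth or antibody yield between lists cannot be told apart from absence of binding.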
